A study of Homo sapiens with 15 samples.

Results

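Genes that change when HT115 cells are made to express M303, a truncated SOX9, instead of GFP were followed in 6 of the 15 RNA sequencing libraries of the series, 3 labelled M303 and 3 labelled GFP. Members of the comparison are all genes of the count table that passed an expression filter, 16160 of 60671. HT115 is an established human colorectal cancer cell line. The M303 cells carried a doxycycline-inducible V5-tagged M303, the other SOX9 groups a V5-tagged SOX9 of the M228, M379 or wild-type (SOX9_WT) form, and the control cells inducible GFP. Every library, controls included, came from cells given 0.5 µg/ml doxycycline for 24 h, so the drug itself is shared by both sides of each comparison. The series text gives M303 as truncated, and neither the position of the truncation nor what M228 and M379 denote is given in the sources used here. Whether replicate libraries were grown as separate cultures is not stated, so the p-values speak only to the variation among these libraries, part or all of which may be technical. The design text describes 6 experiments of 2 replicates, whereas the labels list 5 groups of 3, and the labels were followed.

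SOX9 is a transcription factor with a high-mobility-group box that bends DNA at short A-rich sites. In cartilage it drives the genes of type II, IX and XI collagen. In the intestine it is made in crypt base cells, is needed for Paneth cells and lies downstream of WNT signalling, and in colorectal cancer its gene is often mutated, many of the mutations cutting the protein short.

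Depth differed between the groups. M303 libraries held 31704249, 26591603 and 21310924 counted reads, against 3054755, 12657176 and 16699998 in GFP libraries, so every M303 library was deeper than every GFP library. Levels are given in CPM, reads scaled to a common library size. Finding no read for a gene allows up to 0.141 CPM in the shallowest M303 library and 0.982 CPM in GFP replicate 1. These limits are the worth of 3 reads on the total counted reads alone, whereas all other CPM values are TMM-scaled as well. They cover counting error only. Ribosomal protein genes took 3.89% to 4.52% of reads in M303 libraries, and 4.33%, 6.61% and 3.69% in GFP replicates 1, 2 and 3. The biological coefficient of variation fitted within each group was 0.154 in M303 and 0.321 in GFP. Markers of colorectal epithelium fit the label: the 11 markers summed to 13755 to 18379 CPM in M303 libraries and 11362 to 26376 CPM in GFP libraries, and none was at 0. Fibroblast markers summed to 4.0 to 5.60 CPM in M303 and 3.35 to 3.83 CPM in GFP, and KDR, CDH5 and CD3E, which define endothelial cells and T cells, had no read in any of the 6 libraries.

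M303 cells differed from GFP cells in few genes, and nearly all of those were higher. Beside SOX9 itself, 16 genes were called higher and 2 lower. Among the higher were the cartilage collagen gene COL9A3, the actin-binding gene CALD1, the laminin gene LAMA4, the brush-border gene SI and the epidermal genes SPINK5 and DSG3. The lower genes were ADRA2A, an adrenergic receptor gene, and RILPL2. The call is a Benjamini-Hochberg adjusted p under 0.05 in edgeR's quasi-likelihood test over all 16160 genes, with 1 mean per group fitted to all 15 libraries. It gave 19 genes, 0.118% of those tested, of which 17 were higher (0.105%) and 2 lower (0.0124%). The number of calls rests on how the spread is estimated. A fit of the M303 and GFP libraries alone called 2 genes, SOX9 and COL9A3. With the replicate number as a block, since libraries of equal number deviated together, 85 genes (0.526%) were called, 61 higher (0.377%) and 24 lower (0.149%), among them all 19. All 18 genes other than SOX9 had every M303 library on one side of every GFP library. That by itself fixes their direction in the 3 same-number pairs. Over all 16160 tested genes, 888 were separated in this way as higher and 625 as lower. The separations use the same values as the calls and add no independent support.

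**Figure D1:**
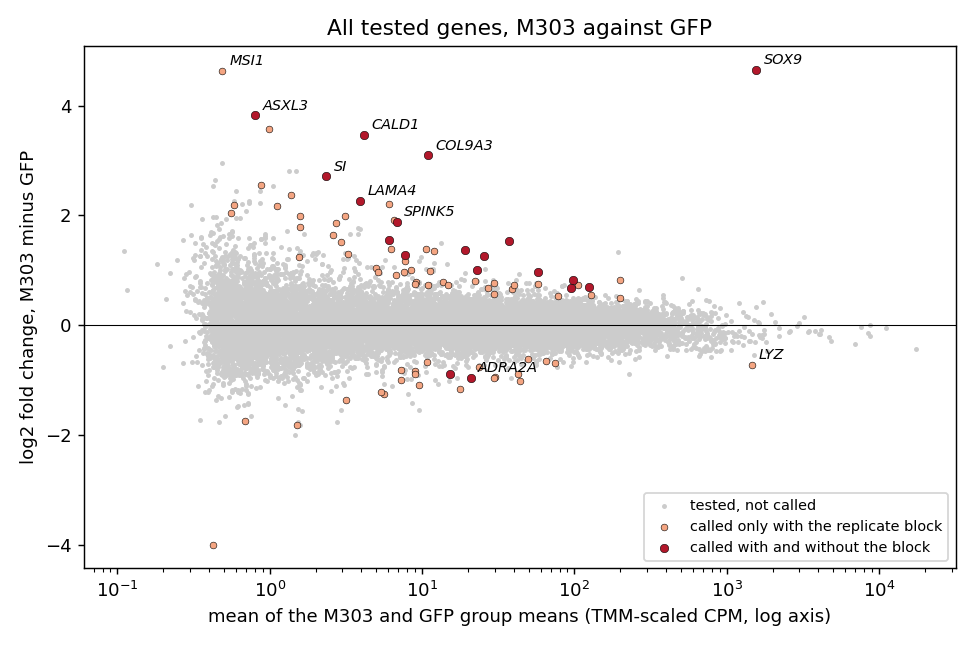
Log2 fold change of M303 against GFP for the 16160 tested genes (vertical axis) against the mean of the M303 and GFP levels in CPM (horizontal axis, log scale). The 19 called genes are in dark red and the genes called only with the replicate block in orange. SOX9 stands alone at the upper right at 4.66, and the called genes lie mostly above 0.

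SOX9 (ENSG00000125398, GRCh38 chromosome 17, 72121020 to 72126416, plus strand) gave the check of the labels. It had 2949, 3037 and 3039 CPM in M303 libraries, against 97.6, 100.8 and 158 CPM in GFP libraries. The groups are far apart and the M303 libraries lie close together. The log2 fold change was 4.66 ± 0.20 (SE, edgeR adjusted p = 4.40e-09), and it stayed between 4.53 and 4.92 when any 1 of the 6 libraries was left out. Reads of the induced gene and of the cell's own SOX9 are counted together here, so the share of each was not measured.

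**Figure D2:**
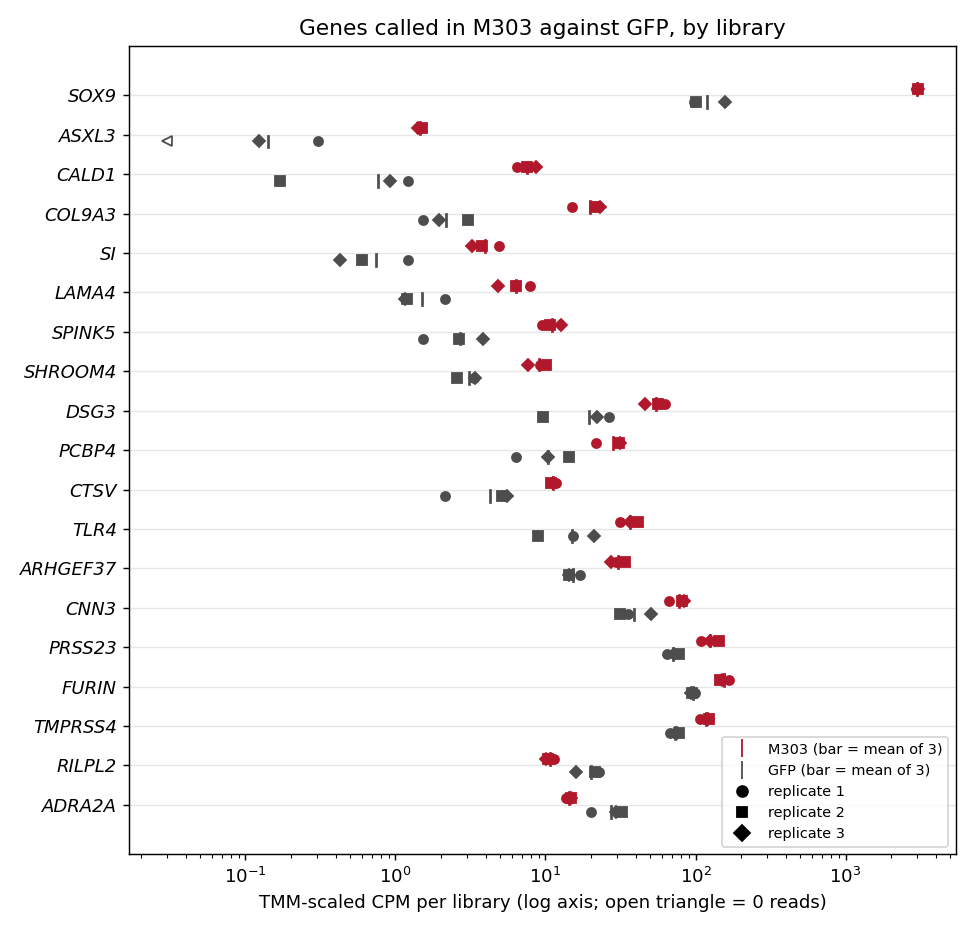
TMM-scaled CPM (horizontal axis, log scale) of the 19 called genes in each M303 library (red, upper row of each gene) and each GFP library (grey, lower row). Marker shapes give the replicate number, vertical bars the group mean, and the open triangle a library with no read. In no gene do the groups overlap, and ADRA2A and RILPL2 are the pair in which M303 lies to the left.

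COL9A3 (chromosome 20, 62816244 to 62841159, plus strand) encodes a chain of collagen IX, the collagen that coats type II fibrils in cartilage. It had 15.1, 21.4 and 23.0 CPM in M303 libraries, against 1.52, 3.07 and 1.96 CPM in GFP libraries. Every M303 library was several times above the highest GFP library. The log2 fold change was 3.09 ± 0.36 (edgeR adjusted p = 0.00223), and COL9A3 was the 1 gene beside SOX9 that the fit of the 2 groups alone also called (adjusted p = 0.0355). It was the 1 called gene among 7 tested members of the cartilage list, against 0.105% of all genes called higher. The list median was 0.40, while COL9A2, the partner chain, had 3.18 CPM in M303 and 2.35 CPM in GFP (log2 fold change 0.51 ± 0.29, adjusted p = 0.695).

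The called genes CALD1, CNN3, SHROOM4, ARHGEF37 and LAMA4 are described together for the known roles of their products, not as members of a tested list. CALD1 (chromosome 7, 134744252 to 134970729, plus strand), which encodes the actin and tropomyosin binding protein caldesmon, had 6.45, 7.51 and 8.68 CPM in M303 libraries, against 1.22, 0.17 and 0.918 CPM in GFP libraries. The GFP values rest on 4, 2 and 15 reads, and the groups are still well apart. Its log2 fold change was 3.47 ± 0.46 (edgeR adjusted p = 0.00725). CNN3, which encodes the related actin-binding protein calponin 3, rose by 0.97 ± 0.17 (adjusted p = 0.0328), with 66.3, 80.7 and 84.4 CPM in M303 libraries and 35.3, 31.3 and 50.6 CPM in GFP libraries. SHROOM4, a gene of a cytoskeletal regulator, rose by 1.56 ± 0.23 (adjusted p = 0.0142), and ARHGEF37, which encodes a predicted guanine nucleotide exchange factor, by 1.01 ± 0.15 (adjusted p = 0.0142). LAMA4, the laminin alpha 4 chain gene of basement membranes, rose by 2.27 ± 0.41 (adjusted p = 0.0485), with 7.94, 6.31 and 4.84 CPM in M303 libraries and 2.13, 1.19 and 1.16 CPM in GFP libraries. Other mesenchymal genes did not follow CALD1: of 10 tested members of that list it was the only call, against 0.105% of all genes called higher. The list median was -0.06, and 4 of the 10 had a fold change above 0. The list of collagen, laminin and matrix genes, with 23 tested members and a median of 0.17, had no call. It does not hold LAMA4 or COL9A3, which were called. With the block COL3A1 was the member called higher (adjusted p = 0.0491, against 0.453 without it). COL3A1, also a fibroblast marker, had 19, 19 and 33 reads in M303 libraries and 0, 2 and 5 reads in GFP libraries. It was called in 0 of the 6 blocked fits that left out 1 library. Of the other fibroblast markers, COL1A1 had 123, 72 and 71 reads in M303 libraries and 7, 40 and 43 reads in GFP libraries (log2 fold change 0.21 ± 0.23, edgeR adjusted p = 0.827), and PDGFRB had 26, 10 and 11 reads in M303 libraries and 4, 2 and 5 reads in GFP libraries (0.62 ± 0.61, adjusted p = 0.812). These and COL3A1 were the 3 tested fibroblast markers, with a median of 0.62 and all 3 above 0. COL1A2 had no read in any M303 library and 1 in GFP replicate 3, and THY1, LUM and DCN had at most 3 reads in any of the 6 libraries.

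A pair of genes of stratified epithelium, SPINK5 and DSG3, rose in M303 cells. SPINK5 (chromosome 5, 148025683 to 148137382, plus strand) encodes LEKTI, an inhibitor of kallikrein proteases in the epidermis. It had 9.52, 10.8 and 12.8 CPM in M303 libraries, against 1.52, 2.64 and 3.85 CPM in GFP libraries, and the groups do not overlap. The log2 fold change was 1.89 ± 0.25 (edgeR adjusted p = 0.00725). DSG3, the gene of the desmosomal cadherin desmoglein 3, had 62.1, 55.9 and 46.2 CPM in M303 libraries, against 26.5, 9.63 and 22.1 CPM in GFP libraries, and rose by 1.54 ± 0.25 (adjusted p = 0.0267). Of 18 tested members of the keratin and stratified epithelium list these were the 2 called (2 of 18, against 0.105% of all genes), the list median was 0.17, and 12 of 18 fold changes were above 0. With the block, the kallikrein gene KLK6 was called higher as well (0.99 ± 0.22 without the block, adjusted p = 0.121 without and 0.0245 with it), while the keratin gene KRT23 was called lower (-0.97 ± 0.34, adjusted p = 0.502 without and 0.0128 with it). KLK6 was called in 1 and KRT23 in 4 of the 6 blocked fits that left out 1 library. A gene on the other strand covers 20.5% of the exon bases of KLK6, and counting without strand cannot separate the pair.

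The higher genes included 4 that encode proteases, a group put together from the calls with no list behind it. CTSV, the gene of the lysosomal cysteine protease cathepsin V, had 11.7, 10.9 and 11.2 CPM in M303 libraries, against 2.13, 5.11 and 5.51 CPM in GFP libraries, and rose by 1.27 ± 0.20 (edgeR adjusted p = 0.0239). PRSS23, a serine protease gene, rose by 0.82 ± 0.15 (adjusted p = 0.0485). FURIN, which encodes the proprotein convertase, had 167, 146 and 150 CPM in M303 libraries, against 98.8, 94.2 and 93.6 CPM in GFP libraries, and rose by 0.69 ± 0.11 (adjusted p = 0.0227). TMPRSS4, a transmembrane serine protease gene, had 107, 123 and 121 CPM in M303 libraries, against 67.2, 77.2 and 75.2 CPM in GFP libraries, and rose by 0.67 ± 0.12 (adjusted p = 0.0485). In FURIN and TMPRSS4 the change is small and the libraries of each group lie close together. FURIN, TMPRSS4 and ASXL3 were named after their values were seen, as called genes outside the rule for named genes.

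SI (chromosome 3, 164978898 to 165078496, minus strand), the gene of the brush-border disaccharidase sucrase-isomaltase and a marker of mature enterocytes, had 4.87, 3.77 and 3.23 CPM in M303 libraries, against 1.22, 0.596 and 0.428 CPM in GFP libraries. These are 163, 98 and 68 reads in M303 and 4, 7 and 7 reads in GFP, low but without overlap. The log2 fold change was 2.72 ± 0.46 (edgeR adjusted p = 0.0328). SI was the 1 called gene among 14 tested enterocyte genes, against 0.105% of all genes called higher. The median log2 fold change of the 14 was 0.61, against 0.01 over all tested genes. With 13 of the 14 above 0, 8 were higher at an unadjusted p under 0.05, a level that 4.25% of all genes passed as higher and 3.55% as lower. With the block, SLC5A1, the sodium-glucose cotransporter gene, and DPP4, a brush-border peptidase gene, were called higher too, as were 0.377% of all genes. SLC5A1 had 80.5, 63.4 and 72.7 CPM in M303 libraries, against 43.2, 36.5 and 48.3 CPM in GFP libraries (log2 fold change 0.76 ± 0.15, adjusted p = 0.084 without and 0.00609 with the block). DPP4 had 152, 123 and 117 CPM in M303 libraries, against 112, 55.9 and 71.2 CPM in GFP libraries (0.73 ± 0.23, adjusted p = 0.408 without and 0.0176 with the block). SLC5A1 was called in 6 and DPP4 in 3 of the 6 blocked fits that left out 1 library. The absorptive genes MEP1A, MEP1B, FABP1 and ALPI were among the 8, and none of these 4 was called with or without the block. Markers of the colonocyte, the absorptive cell of the large bowel, gave a different picture: none of 11 was called either way, their median was -0.01, and KRT20, a keratin gene of mature colonocytes, had 644, 732 and 599 CPM in M303 libraries, against 597, 621 and 703 CPM in GFP libraries (0.04 ± 0.17, adjusted p = 0.962).

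A set of gut and liver metabolism genes had a median of 0.71 over 13 tested members, 12 of them above 0, with no call. HGD, which encodes homogentisate dioxygenase of tyrosine breakdown, was called higher with the block (6.12, 7.16 and 6.78 CPM in M303 libraries, against 3.04, 3.75 and 2.88 CPM in GFP libraries, adjusted p = 0.161 without and 0.0132 with the block). UGT1A1 was the other member called with the block (0.74 ± 0.21, adjusted p = 0.343 without and 0.0289 with it), and 50.1% of its exon bases lie in other genes of the same strand, so its value is uncertain. With the block 0.377% of all genes were called higher. HGD was called in 4 and UGT1A1 in 2 of the 6 blocked fits that left out 1 library.

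**Figure D3:**
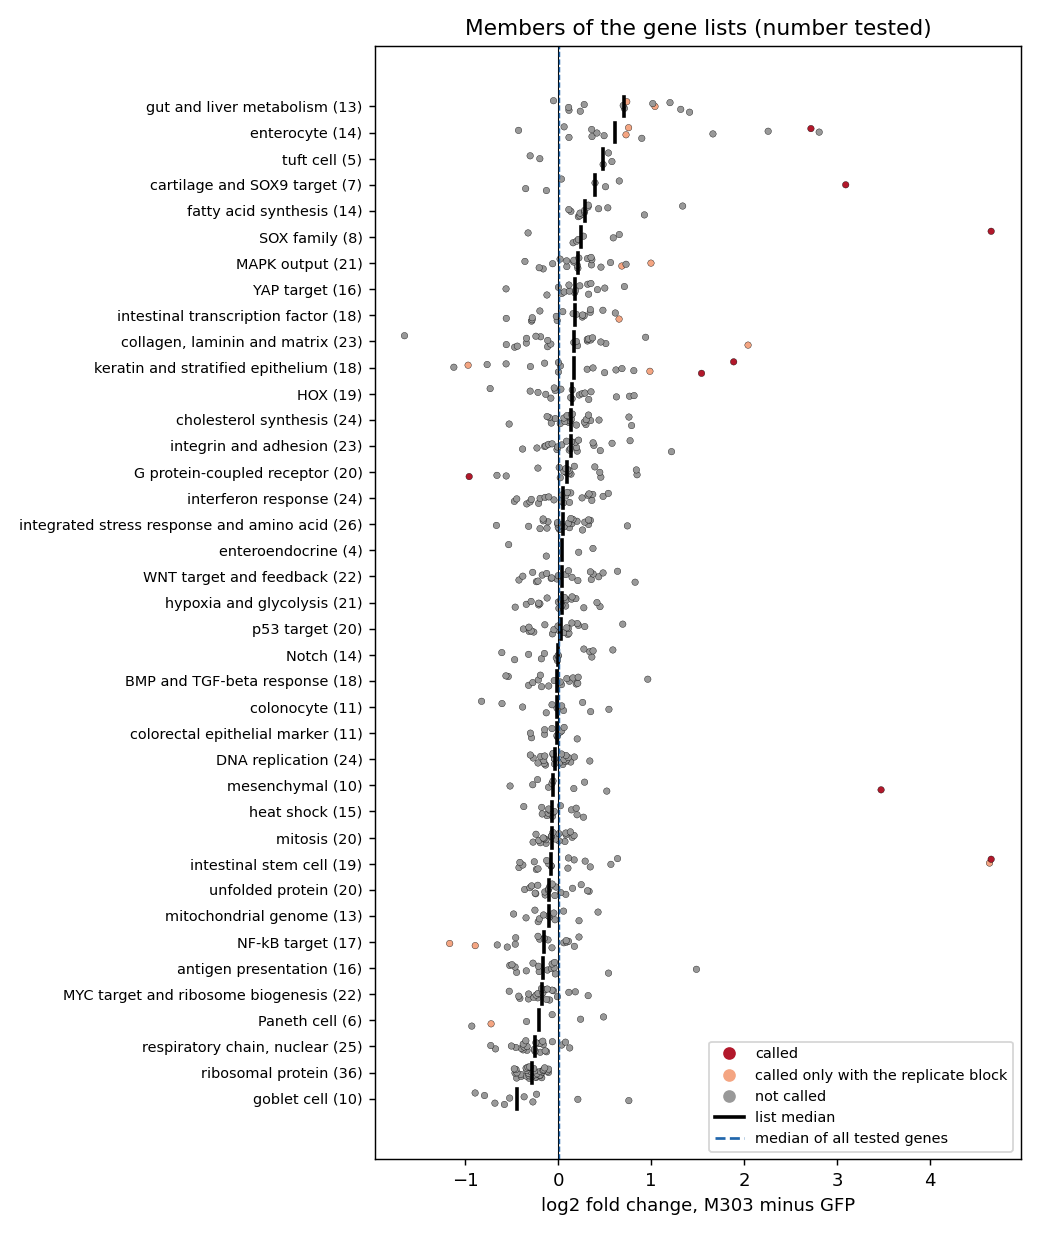
Log2 fold change of M303 against GFP (horizontal axis) for each tested member of the gene lists with at least 4 tested members, ordered by list median (black bar). Called members are dark red and those called only with the block orange. The gut and liver metabolism and enterocyte lists lie highest, at medians of 0.71 and 0.61, and the goblet cell list lowest, at -0.44, while the dashed line marks the median of all genes.

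The lists of secretory cell types had no call and did not share a direction. Of 10 tested goblet cell genes 2 had a fold change above 0 and the median was -0.44. At an unadjusted p under 0.05, 1 was higher and 3 were lower, against 4.25% and 3.55% of all genes. The median was -0.20 over 6 Paneth cell genes, 0.49 over 5 tuft cell genes and 0.05 over 4 enteroendocrine genes. AGR2, a protein disulfide isomerase gene of mucus cells, averaged 638 CPM in M303 and 951 CPM in GFP (-0.58 ± 0.20, edgeR adjusted p = 0.474), and MUC2, the gel-forming mucin gene, averaged 123 CPM in M303 and 177 CPM in GFP (-0.52 ± 0.35, adjusted p = 0.745). Of 6 tested Paneth cell genes, LYZ, the lysozyme gene, was called lower than in GFP with the block alone (adjusted p = 0.0176, against 0.522 without it). It was called in 3 of the 6 blocked fits that left out 1 library. It had 1554, 944 and 809 CPM in M303 libraries, against 2429, 1404 and 1615 CPM in GFP libraries, and M303 replicate 1 lies above GFP replicate 2. A gene on the other strand covers 34.7% of the LYZ exon bases, so part of its reads may not be its own.

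Stem cell and proliferation genes showed no shared shift. Of 19 tested stem cell genes SOX9, itself the induced gene, was the only call, against 0.105% of all genes called higher. The median was -0.07. LGR5, the receptor that marks crypt base stem cells, had 38.1, 35.1 and 42.3 CPM in M303 libraries, against 53.8, 24.4 and 72.1 CPM in GFP libraries (-0.38 ± 0.27, edgeR adjusted p = 0.755), and the wide GFP values enclose all M303 values. PROM1, the CD133 gene, had 59.7, 42.2 and 40.0 CPM in M303 libraries, against 91.8, 44.8 and 55.2 CPM in GFP libraries (-0.41 ± 0.30, adjusted p = 0.756). MSI1, which encodes an RNA-binding protein of stem cells, was called higher with the block (adjusted p = 0.0132, against 0.0737 without it). It had 48, 16 and 17 reads in M303 libraries and 0, 0 and 1 reads in GFP libraries. Scaled for depth, the summed reads give a ratio of 31.5 with a 95% counting interval of 5.50 to 1261, so its size is poorly known. It was called in 3 of the 6 blocked fits that left out 1 library. Neither of the cell cycle lists had a call: the medians were -0.04 for 24 DNA replication genes and -0.06 for 20 mitosis genes, and the proliferation marker MKI67 had 518, 686 and 625 CPM in M303 libraries, against 734, 325 and 666 CPM in GFP libraries (0.09 ± 0.24, adjusted p = 0.936). CDX2, the homeobox factor of intestinal identity, averaged 331 ± 96.1 CPM in M303 and 333 ± 92.4 CPM in GFP (SD, n = 3 each). WNT target genes had no call among 22 tested, with a median of 0.04. Among 18 intestinal transcription factors FOXA1 was called higher with the block only (adjusted p = 0.0341, against 0.214 without it), with 53.5, 43.9 and 46.2 CPM in M303 libraries and 32.8, 22.4 and 36.2 CPM in GFP libraries. It was called in 2 of the 6 blocked fits that left out 1 library. In a bulk sample, fewer cells of a type and less RNA per cell cannot be told apart.

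ADRA2A (the alpha-2A adrenergic receptor gene, a G protein-coupled receptor) had 13.6, 14.7 and 14.8 CPM in M303 libraries, against 20.1, 32.2 and 29.7 CPM in GFP libraries. It fell by 0.95 on the log2 scale (SE 0.16, edgeR adjusted p = 0.0328). Among 20 tested members of the G protein-coupled receptor list it was the 1 call, against 0.0124% of all genes called lower. RILPL2, a gene of a protein of ciliary membrane transport, had 11.4, 10.5 and 10.1 CPM in M303 libraries, against 22.8, 21.5 and 15.97 CPM in GFP libraries, and fell by 0.89 (SE 0.15, adjusted p = 0.0267). TLR4, the receptor of bacterial lipopolysaccharide, rose by 1.26 ± 0.23 (adjusted p = 0.048), with 31.3, 41.1 and 36.6 CPM in M303 libraries and 15.2, 8.86 and 21.1 CPM in GFP libraries. Among 17 tested NF-kB target genes none was called, and 4 were lower at an unadjusted p under 0.05, as were 3.55% of all genes. Of these 4, the neutrophil chemokine genes CXCL1 and CXCL8 were called lower with the block, as were 0.149% of all genes. CXCL1 had 27.1, 36.2 and 26.6 CPM in M303 libraries, against 38.01, 72.6 and 54.0 CPM in GFP libraries (adjusted p = 0.202 without and 0.0103 with the block). CXCL8 had 8.21, 14.4 and 10.96 CPM in M303 libraries, against 12.5, 33.3 and 26.7 CPM in GFP libraries (adjusted p = 0.26 without and 0.0103 with the block), and M303 replicate 2 lies above GFP replicate 1. CXCL1 was called in 4 and CXCL8 in 3 of the 6 blocked fits that left out 1 library. Of 21 tested MAPK output genes 17 had a fold change above 0 and none was called, and the block added ETV5 (1.00 ± 0.22, adjusted p = 0.134 without and 0.0205 with it) and EGR1 (0.69 ± 0.18, adjusted p = 0.246 without and 0.014 with it), both transcription factor genes induced by growth factor signalling, as higher. With the block 0.377% of all genes were called higher. ETV5 was called in 1 and EGR1 in 3 of the 6 blocked fits that left out 1 library. PCBP4, an RNA-binding protein gene, rose by 1.37 ± 0.22 (adjusted p = 0.0283), with 21.7, 31.0 and 31.4 CPM in M303 libraries and 6.39, 14.4 and 10.3 CPM in GFP libraries. ASXL3, a gene of a chromatin regulator, was called higher (adjusted p = 0.0328) on 49, 39 and 30 reads in M303 libraries and 1, 0 and 2 reads in GFP libraries, and the depth-scaled ratio of the summed reads was 15.3 with a 95% counting interval of 5.12 to 75.3.

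Ribosomal protein genes lay slightly below 0 together. All 36 tested had a fold change below 0, with a median of -0.28, and none was called with or without the block. Nuclear genes of the respiratory chain had a median of -0.25 over 25 members, also with no call. GFP replicate 2 had the highest share of ribosomal protein reads, and its part in these medians was not tested.

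The calls differ in how much they rest on 1 library. SOX9, COL9A3, CALD1 and SPINK5 were called in all 6 fits that left out 1 M303 or GFP library. ARHGEF37 was lost without M303 replicate 2, and SHROOM4 without M303 replicate 2 or GFP replicate 2. CTSV, DSG3 and FURIN were lost without any 1 M303 replicate, TLR4 also without GFP replicate 1, and PCBP4 without M303 replicates 2 or 3 or GFP replicates 1 or 3. SI, ASXL3 and ADRA2A held only without GFP replicate 1, CNN3 and RILPL2 only without GFP replicate 3, PRSS23 and TMPRSS4 only without GFP replicate 2, and LAMA4 in none. The adjusted p of a lost call lay between 0.0501 and 0.253, and no called gene changed direction. The count itself was 8, 4 and 6 without M303 replicates 1, 2 and 3, and 14, 17 and 31 without GFP replicates 1, 2 and 3. With the block it was 35, 15 and 19 without M303 replicates 1, 2 and 3, and 82, 383 and 174 without GFP replicates 1, 2 and 3, and 2 in a blocked fit of the M303 and GFP libraries alone.

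Promoter sequence was read for the called genes to show whether the letters that SOX proteins are known to bind stand near their starts. RefSeq promoters of GRCh38.p14, 250 bases before to 50 bases after a start, were on hand for 16 of the 18 genes other than SOX9, 26 promoters in all. AACAAT, on either strand, stood in 6 of the 26 promoters (23.1%), from 5 genes, and in 10.1% of 35116 promoters of all genes. ACAAAG stood in 5 of the 26 (19.2%), from 4 genes, and in 16.1% of all. One or the other stood in 10 of the 26 (38.5%), against 23.9% of all. Promoters of 1 gene can overlap, as they do for PCBP4, so these counts are a description only. Shown are SI, with 1 AACAAT 106 bases before its start (chr3:165078447-165078746, minus strand), DSG3, with 3 separate matches of ACAAAG (chr18:31447491-31447790, plus strand), SPINK5, with no match in this window (chr5:148063730-148064029, plus strand), and ADRA2A, 1 of the 2 lower genes, with none (chr10:111076779-111077078, plus strand). Each runs 5′ to 3′ on the gene's strand, and capitals mark the matches, CTTTGT being ACAAAG read on the other strand.
SI: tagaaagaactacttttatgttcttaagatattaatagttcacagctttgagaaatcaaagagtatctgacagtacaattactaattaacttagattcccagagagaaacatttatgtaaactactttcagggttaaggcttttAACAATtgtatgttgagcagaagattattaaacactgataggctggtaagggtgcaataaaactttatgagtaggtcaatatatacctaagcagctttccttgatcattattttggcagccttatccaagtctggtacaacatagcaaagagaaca
DSG3: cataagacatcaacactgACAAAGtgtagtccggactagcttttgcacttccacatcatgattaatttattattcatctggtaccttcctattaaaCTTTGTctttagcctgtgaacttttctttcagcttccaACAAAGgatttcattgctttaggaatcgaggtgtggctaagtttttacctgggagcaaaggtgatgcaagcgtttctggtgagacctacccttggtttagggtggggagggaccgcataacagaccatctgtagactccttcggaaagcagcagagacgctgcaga
SPINK5: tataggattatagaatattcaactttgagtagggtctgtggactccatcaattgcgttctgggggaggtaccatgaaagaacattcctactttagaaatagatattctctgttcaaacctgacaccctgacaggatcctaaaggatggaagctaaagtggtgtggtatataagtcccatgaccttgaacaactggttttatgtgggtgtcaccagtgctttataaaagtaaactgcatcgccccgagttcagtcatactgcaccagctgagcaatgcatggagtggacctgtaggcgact
ADRA2A: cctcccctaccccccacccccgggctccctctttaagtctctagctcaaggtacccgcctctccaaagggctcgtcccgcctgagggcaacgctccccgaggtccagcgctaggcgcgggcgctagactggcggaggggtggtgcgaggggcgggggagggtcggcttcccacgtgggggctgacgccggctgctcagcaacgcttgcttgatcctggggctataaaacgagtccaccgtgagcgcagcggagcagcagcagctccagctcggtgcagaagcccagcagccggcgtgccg

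Direct tests set M303 against the other SOX9 proteins. No gene was called between M303 and M379 by edgeR (0% of 16160, with 137 genes at an unadjusted p under 0.05, and 0 by DESeq2). The 137 are fewer than the share of 0.05 that no difference at all would give. The test may therefore be conservative here, and the lack of calls does not show that M303 and M379 are alike. Between M303 and M228, 2 genes were called (0.0124%, or 0.0866% with the block). Between M303 and SOX9_WT there were 62 calls (0.384%), of which 34 were higher in M303 and 28 lower, or 259 with the block (1.6%). SOX9 itself averaged 3009 ± 51.6 CPM in M303, 2105 ± 250 CPM in M228, 2215 ± 158 CPM in M379 and 213 ± 28.6 CPM in SOX9_WT (SD, n = 3 each). In counted SOX9 reads M303 and SOX9_WT differ by 3.82 ± 0.20 on the log2 scale (adjusted p = 4.47e-08). SOX9_WT differed from GFP in SOX9 by 0.84 ± 0.18 (adjusted p = 0.11 without and 0.0381 with the block), and whether all transcripts of the wild-type construct are counted as SOX9 was not tested. The number of SOX9 reads and the form of the protein cannot be told apart in the comparison of M303 with SOX9_WT.

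COL9A3 separated M303 from M228. It had 15.1, 21.4 and 23.0 CPM in M303 libraries, 11.6, 16.2 and 21.7 CPM in M379 libraries, and 3.14, 3.11 and 3.50 CPM in M228 libraries. The M303 and M379 values overlap, and all lie above M228. SOX9_WT libraries had 12.7, 5.90 and 5.64 CPM, which lie above every GFP library and below every M303 library. SOX9_WT differed from GFP by 1.83 ± 0.36 (edgeR adjusted p = 0.105 without and 0.0694 with the block). M303 differed from SOX9_WT by 1.27 ± 0.30 (adjusted p = 0.0888 without and 0.0641 with the block). M303 was higher than M228 by 2.59 ± 0.33 (edgeR adjusted p = 0.00702), while it differed from M379 by 0.26 (adjusted p = 1). Without M228 replicates 1, 2 or 3 the call against M228 was lost, with adjusted p of 0.112, 0.0951 and 0.0715 and differences of 2.56, 2.57 and 2.66.

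Of the 18 genes called against GFP beside SOX9, 5 also separated M303 from SOX9_WT. CALD1 was higher in M303 by 4.14 ± 0.45 (edgeR adjusted p = 0.000473), with 0.778, 0.136 and 0.191 CPM in SOX9_WT libraries. PCBP4 was higher by 1.33 ± 0.22 (adjusted p = 0.0181), TMPRSS4 by 0.86 ± 0.12 (adjusted p = 0.0065) and ASXL3 by 2.72 ± 0.49 (adjusted p = 0.0258). ADRA2A was lower in M303 by 1.55 (SE 0.16, adjusted p = 0.000473), with 44.9, 45.2 and 36.0 CPM in SOX9_WT libraries, so that SOX9_WT lay above and M303 below every GFP library. For the remaining genes no difference from SOX9_WT was called without the block. SHROOM4, ARHGEF37 and PRSS23 differed by 0.16 ± 0.20, 0.25 ± 0.14 and 0.11 ± 0.15, while SPINK5, DSG3 and SI differed by 1.03 ± 0.23, 1.01 ± 0.24 and 1.61 ± 0.37 (adjusted p = 0.0696, 0.0873 and 0.0815). With the block SPINK5, DSG3 and SI were called higher in M303 than in SOX9_WT (adjusted p = 0.0143, 0.0418 and 0.00169), and so were CTSV, FURIN and LAMA4 (adjusted p = 0.0198, 0.03 and 0.0427).

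**Figure D4:**
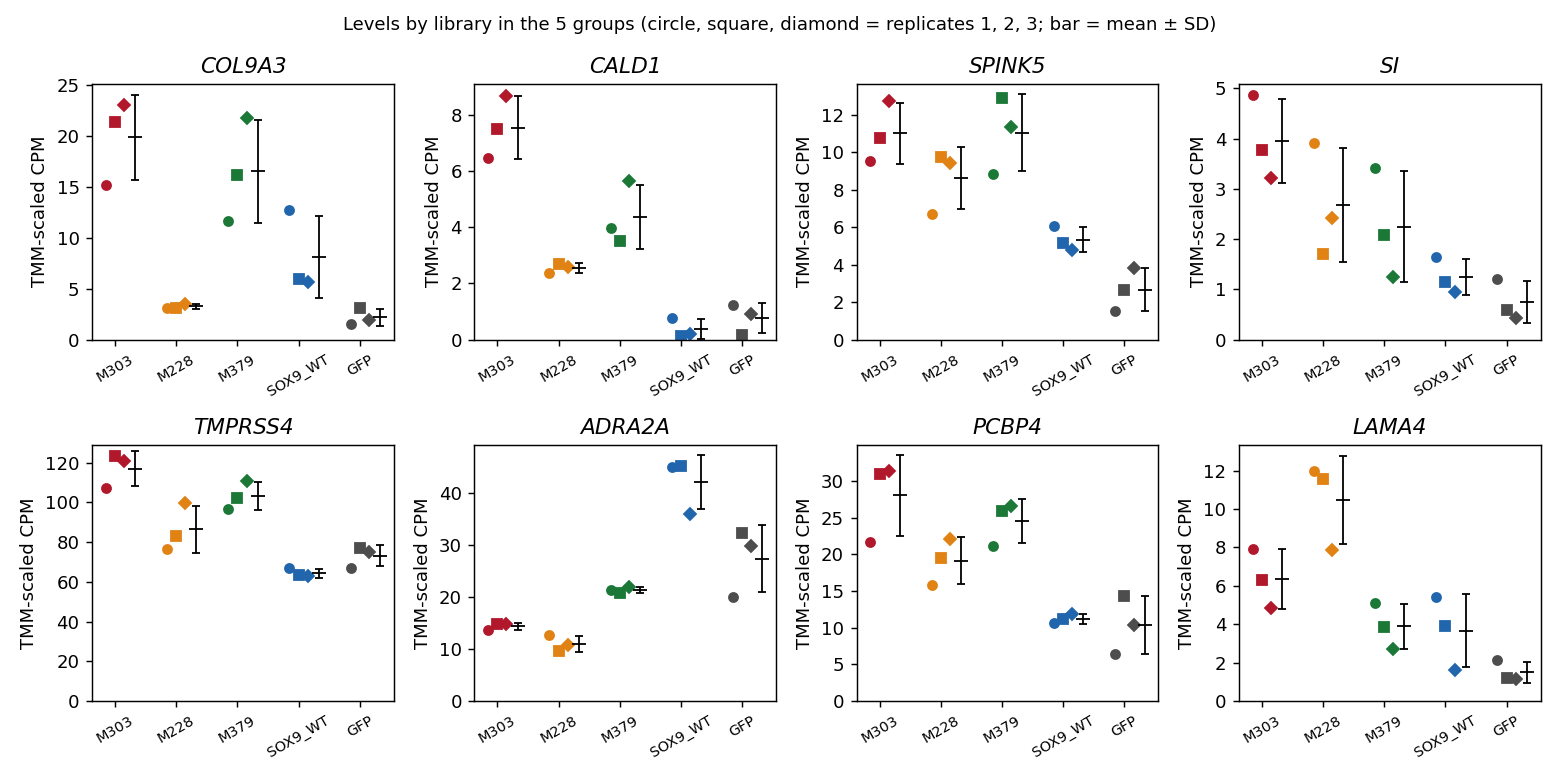
TMM-scaled CPM (vertical axes, each from 0) of 8 genes in the 15 libraries, with groups in the order M303, M228, M379, SOX9_WT and GFP. Symbols are libraries and bars the mean ± SD of 3. COL9A3 is high in M303 and M379 and on average intermediate in SOX9_WT. ADRA2A is lowest in M303 and M228 and highest in SOX9_WT.

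The M228, M379 and SOX9_WT comparisons with GFP share their control libraries with that of M303, so their values are given side by side only. SPINK5 differed from GFP by 1.89 ± 0.25 in M303, 1.53 ± 0.26 in M228, 1.90 ± 0.26 in M379 and 0.86 ± 0.26 in SOX9_WT. LAMA4 differed by 2.27 ± 0.41 in M303, 2.97 ± 0.42 in M228, 1.55 ± 0.43 in M379 and 1.51 ± 0.43 in SOX9_WT. CALD1 differed by 3.47 ± 0.46 in M303, 1.91 ± 0.50 in M228, 2.69 ± 0.48 in M379 and -0.67 ± 0.62 in SOX9_WT.

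Other genes separated M303 from SOX9_WT without a call between M303 and GFP. Higher in M303 were CD200, an immune inhibitory ligand gene, with 5.25, 4.54 and 3.56 CPM in M303 libraries against 1.31, 0.679 and 0.860 CPM in SOX9_WT libraries, and CD109, a gene of a membrane-anchored TGF-beta co-receptor, with 11.6, 9.28 and 10.4 CPM in M303 libraries against 3.74, 2.24 and 2.87 CPM in SOX9_WT libraries (1.80 ± 0.36, edgeR adjusted p = 0.0431). The testis chaperone gene CLGN and UTS2B, a urotensin peptide gene, were higher as well. With the block, CD109, CLGN and UTS2B were also called higher in M303 than in GFP (adjusted p = 0.0103, 0.0103 and 0.0315), in 5, 4 and 2 of the 6 blocked fits that left out 1 library. Lower in M303 were the WNT inhibitor gene APCDD1 (-1.91 ± 0.32, adjusted p = 0.0193), the chemokine receptor gene CXCR4 (-1.82 ± 0.22, adjusted p = 0.00121) and the sphingomyelinase gene SMPD3 (-1.59 ± 0.29, adjusted p = 0.0296). LYZ was also called lower in M303 than in SOX9_WT without the block (-1.44 ± 0.27, edgeR adjusted p = 0.0296). ETV5 (1.28 ± 0.22) and HGD (1.40 ± 0.23) were called higher (adjusted p = 0.0193 each). How far the calls of LYZ, ETV5 and HGD rest on 1 library was not tested. APCDD1 had 3.16, 2.46 and 2.94 CPM in M303 libraries, 13.9, 7.60 and 10.6 CPM in SOX9_WT libraries and 3.35, 0.681 and 1.77 CPM in GFP libraries. CXCR4 had 1.70, 2.35 and 1.99 CPM in M303 libraries, 8.02, 6.92 and 6.21 CPM in SOX9_WT libraries and 1.82, 3.92 and 3.12 CPM in GFP libraries. In both genes the M303 values overlap those of GFP, and the SOX9_WT libraries lie above all 6. CXCR4 and ADRA2A were called against SOX9_WT in every fit that left out 1 library. CD109 and UTS2B were lost without any 1 of the M303 or SOX9_WT libraries (adjusted p 0.0716 to 0.284). CD200 was lost without SOX9_WT replicates 2 or 3, CLGN without SOX9_WT replicates 1 or 2, APCDD1 without M303 replicates 2 or 3 or SOX9_WT replicates 1 or 3, and SMPD3 without M303 replicates 2 or 3 or SOX9_WT replicates 1 or 2 (adjusted p 0.0549 to 0.169).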

How the data were processed

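The deposited counts are raw reads per Ensembl gene, which the authors made from 150-bp paired-end reads with STAR 2.7.0a on hg38, per the submitters' processing notes, and featureCounts 2.0.1 with Ensembl 101, per the file headers. That command line has no strand and no paired-end option, so strands were pooled in the counting. Whether the mates of a pair were counted singly is not stated. If they were, counting intervals and 3-read limits are too narrow. A separate normalized table, in which 3 columns match no sample label, was not used. Symbols were found for 42020 of 60671 genes.

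Counts were filtered with filterByExpr, scaled by TMM and fitted with edgeR 4.0.16 in R 4.3.3, 1 mean per group over 15 libraries (10 residual degrees of freedom). Two-sided quasi-likelihood tests were used, with Benjamini-Hochberg adjustment within each contrast. Levels are TMM-scaled CPM, and fold changes are log2 estimates ± standard error. Alternatives were RLE scaling, DESeq2 1.42.0, no filter, the 2 groups alone, a replicate block, libraries 2 and 3 only, limma 3.58.1 voom with quality weights, and leaving out each library. The steps were tested on simulated data. There each gene had the same spread in all groups and there was no replicate effect. That test cannot speak to the wider spread of GFP or to the block. Equal replicate numbers pair the libraries by a rule on how their departures from the group means correlate (0.441, 0.236 and 0.361 for M303 and GFP, minimum 0.1), not by any label. The pairing is weakest for M303 replicate 2. It correlated more with M228 replicate 3 (0.298) than with M228 replicate 2 (0.246). With SOX9_WT replicates 2 and 3 it correlated at 0.108 and 0.078. In all other cases an M303 library correlated most with the library of equal number. No 2 libraries of a group agreed within sampling noise.

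The members and the 42 gene lists were chosen with earlier results of these data known. Named genes are SOX9, up to 12 called genes each way with log2 CPM averaging at least 1 and no overlap between groups, up to 3 called members of a list, 4 each way for the direct comparisons, and PROM1, KRT20, LGR5, MKI67 and CDX2. List members called only with the block, FURIN, TMPRSS4 and ASXL3 were added after their values were seen. Of the genes called between M303 and M228, 1 is not reported here.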

Additional observations from a re-analysis of the deposited data

Results flagged for a closer look

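In 6 cases a gene called for M303 differed from another SOX9 protein by a direct test of the difference (edgeR, adjusted over all tested genes). Between M303 and SOX9_WT these were CALD1 with 4.14, ASXL3 with 2.72, PCBP4 with 1.33, TMPRSS4 with 0.86 and ADRA2A with -1.55 on the log2 scale. Each of these was also called between M303 and GFP. The 2 groups differ in counted SOX9 reads as well as in the labelled protein, and these cannot be told apart. Between M303 and M228 the gene was COL9A3 with 2.59, and all 3 M303 libraries lay above all 3 M228 libraries.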

How the results depend on the processing

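Of the single-gene values under all alternatives, 505 kept their direction and side of the threshold, 132 fell short of it, 48 newly passed it and 17 changed sign, all 17 in differences that were not called. The number of genes called in M303 against GFP, 19 by the stated test, was 16 with RLE scaling, 89 with DESeq2, 212 with no filter on low counts, 2 in a fit of the 2 groups alone, 85 with the replicate block, 4 with libraries 2 and 3 only and 42 with voom quality weights. Leaving out 1 library gave 4 to 31, and with the block 35, 15 and 19 without M303 replicates 1, 2 and 3, and 82, 383 and 174 without GFP replicates 1, 2 and 3. The blocked fit of M303 and GFP alone gave 2, and these blocked alternatives were chosen after seeing the data. Against SOX9_WT the 62 calls became 170 with DESeq2, 273 with no filter, 121 with the 2 groups alone, 259 with the replicate block, 7 with libraries 2 and 3 only and 1202 with voom, and 9 to 33 without 1 library. Against M228 the 2 calls became 11 with DESeq2, 47 with no filter, 14 with the block, 1 with libraries 2 and 3 only and 14 with voom, and 1 to 2 without 1 library. Against M379 there were 5 with no filter, 1 with voom and 0 otherwise, including 0 without any 1 library. The cause of these differences was not tested. The fit of the 2 groups alone gave fewer calls against GFP and more against SOX9_WT. The biological coefficient of variation was 0.321 in GFP, 0.154 in M303 and 0.092 in SOX9_WT. Signs turned for SMPD3 (0.0047 with no filter, 0.00081 with libraries 2 and 3 only), CDX2 (0.025 with no filter, 0.080 with voom), KRT20 (-0.0062 with libraries 2 and 3 only) and MKI67 (-0.068 with voom). Without 1 library SMPD3 ranged from -0.25 to 0.21, KRT20 from -0.043 to 0.11, MKI67 from -0.20 to 0.29, CDX2 from -0.27 to 0.13 and LGR5 from -0.74 to 0.032. The voom quality weight was 0.07 for GFP replicate 2, the lowest of the 15. Against M228 the block added 1 named gene, IGFBP2, as higher in M303 (2.09, adjusted p = 0.0492), and against M379 none. Those it changed against GFP stand in the report. Against SOX9_WT it also called PROM1, KRT20, CXCL1, CXCL8 and KRT23 lower and EGR1, COL3A1 and UGT1A1 higher in M303. Depth limits low genes in GFP replicate 1, where 3 reads equal 0.982 CPM before TMM scaling.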

Other observations

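Some genes outside the lists were called in M303 against GFP only with the replicate block (edgeR), and are given here as values named after they were seen. Higher were SLC6A20, a proline transporter gene of brush-border membranes (256 CPM in M303 and 144 CPM in GFP, log2 fold change with the block 0.84 ± 0.12, adjusted p = 0.00928), IGFBP2, which encodes a binding protein of insulin-like growth factors (10.3 CPM in M303 and 1.83 CPM in GFP, 2.25 ± 0.38, adjusted p = 0.0169), and the monoamine oxidase genes MAOA (49.4 CPM in M303 and 31.1 CPM in GFP, adjusted p = 0.0332) and MAOB (4.89 CPM in M303 and 1.64 CPM in GFP, adjusted p = 0.0306). TBX2, a T-box transcription factor gene, had 1.01 CPM in M303 and 0.159 CPM in GFP (adjusted p = 0.0332). Lower were ANXA6, the annexin A6 gene (29.1 CPM in M303 and 58.9 CPM in GFP, -1.10 ± 0.17, adjusted p = 0.0103), FOXQ1, a forkhead factor gene (20.6 CPM in M303 and 40.0 CPM in GFP, -0.99 ± 0.16, adjusted p = 0.0132), and NEFM, a neurofilament gene (3.43 CPM in M303 and 7.89 CPM in GFP, -1.24 ± 0.18, adjusted p = 0.00928). Without the block the adjusted p of these genes lay between 0.0886 and 0.639. SLC6A20 and NEFM were called in 5 of the 6 blocked fits that left out 1 library, and MAOB in 2 and TBX2 in 1.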
